A study of Bos taurus with 64 samples.

Results

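The effect of an antioxidant supplement on muscle gene expression was examined in the Normand cows that were handled with limited stress before slaughter, 16 of the 32 cows of the study and 32 of its 64 arrays. Of these 16 cows, 8 received the EP diet, labelled Lipid VitE PERP, and 8 the control diet, labelled Lipid-rich. All of them ate the same base ration for 101 days, with straw as 30% and concentrate as 70% of the feed and 40 g of linseed and rapeseed lipids per kg of dry matter. The EP diet added vitamin E and the PERP mixture of plant extracts rich in polyphenols. Groups were taken from the diet and stress labels. The cows were about 4.5 years old, came from several farms, and were killed over several weeks, on days that the labels do not tie to single cows. One longissimus thoracis (LT) and one semitendinosus (ST) sample per cow, taken within minutes of slaughter, was hybridised to a single-colour Agilent array. Limited stress meant calm handling and transport with a companion cow. The other 16 cows, 8 per diet, were stressed by isolation in a lorry and time in a labyrinth. They serve for comparison, and the fits also draw on them for the estimate of the spread. No stressed cow was left out in turn, so how far their values rest on single cows was not tested. The probe filter and the centring of values used the arrays of all 32 cows. P-values measure the spread between cows, 1 sample of each muscle per cow.

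Vitamin E is a fat-soluble antioxidant that stops the chain of lipid peroxidation in membranes and reaches muscle on lipoproteins. Inside the cell, superoxide dismutases turn superoxide into hydrogen peroxide, and catalase, glutathione peroxidases and peroxiredoxins remove it. Many polyphenols are known to act through the transcription factor NRF2, which switches on genes of glutathione and quinone metabolism, and a feed rich in linseed supplies the unsaturated fatty acids that peroxidise most easily. The question asked of the arrays was which transcripts of these pathways, and which others, differed between the diets when stress was limited.

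On the mean of both muscles, no transcript of 4230 tested was called different between the diets (0%). A call required that at least 80% of the tested probes of a transcript had an adjusted p under 0.1 in one direction in limma's moderated test over 10254 probes. The lowest adjusted p of any probe was 0.9999. Without adjustment, 208 probes were at p under 0.05, which is 2.03% of those tested, with 62 probes higher (0.605%) and 146 lower (1.42%) on the EP diet. By transcript mean there were 91 of 4230 (2.15%), 28 higher (0.662%) and 63 lower (1.49%). In no transcript did the 8 EP cows and the 8 control cows separate without overlap. The 95% interval of a difference had a median half-width of 0.24 on the log2 scale, with quartiles of 0.17 and 0.37. The interval stayed within 0.5 of 0 for 75.8% of the transcripts and within 1 of 0 for 96.5%.

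No antioxidant enzyme was called different between the diets. Of 23 transcripts tested for 15 genes of this list, 0 were called and 0 were at an unadjusted p under 0.05. Their differences, EP minus control, ran from -0.05 to 0.17 on the log2 scale, with a median of 0.01, where the median of all tested transcripts was -0.01. Leaving out 1 cow at a time moved the median of the list between -0.01 and 0.03.

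Catalase (CAT), which breaks down hydrogen peroxide in peroxisomes, ranged from -0.19 to 0.33 in the EP cows, with a median of -0.03, and from -0.19 to 0.15 in the control cows, with a median of 0.01. These values are log2 signals centred within each muscle and averaged over the muscles of a cow, as are all cow values below. The 2 ranges lay over each other, and the difference of 0.02 ± 0.08 (SE) had a 95% interval from -0.13 to 0.17. For SOD1, the cytosolic superoxide dismutase, the EP cows ranged from -0.14 to 0.44 around a median of 0.13 and the control cows from -0.21 to 0.25 around -0.02. Its difference was 0.10, with an interval from -0.13 to 0.33, and the custom probe set of the same gene gave 0.02. PRDX6, a peroxiredoxin that also repairs oxidised phospholipids, differed by 0.06 (-0.14 to 0.27), and 0.03 in its custom set.

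GPX4 is the selenium-dependent peroxidase that reduces lipid hydroperoxides within membranes. In the ST its log2 signal over the 75th percentile of the array ranged from 0.42 to 1.25 in the EP cows, with a median of 0.91, and from 0.26 to 1.03 in the control cows, with a median of 0.49. Of the 8 EP cows, 7 were thus above the control median in the ST, while the ranges overlapped. The difference was 0.33 in the ST (unadjusted p = 0.038 by limma) and -0.04 in the LT (unadjusted p = 0.73). The difference between the muscles had an unadjusted p of 0.027, and none of these passed after adjustment. In the ST, 1 of the 23 antioxidant enzyme transcripts was thus higher at an unadjusted p under 0.05, where 1.63% of all transcripts were, and 0 were without any 1 of 8 of the 16 cows (control cows cow255, cow270, cow308 and cow316 and EP cows cow275, cow277, cow314 and cow331). GPX3, the secreted peroxidase of plasma, ranged more widely, from -0.71 to 0.35 in the EP cows and from -0.76 to 0.65 in the control cows, and differed by 0.17 (-0.32 to 0.65).

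Of the genes of NRF2 and glutathione metabolism, 9 had 13 tested transcripts, with a median difference of 0.02 and 0 at an unadjusted p under 0.05. NQO1, the quinone reductase that is a classical NRF2 target, ranged from -0.21 to 0.23 in the EP cows and from -0.20 to 0.11 in the control cows. Its difference was 0.08 (-0.12 to 0.29), and its custom set gave 0.08 (-0.13 to 0.28). The glutathione S-transferases GSTM1 and GSTT1, which join glutathione to electrophiles, differed by 0.19 (-0.05 to 0.44) and 0.18 (-0.06 to 0.41). GGT1, which splits extracellular glutathione, differed by -0.73 in the LT (unadjusted p = 0.024) and 0.12 in the ST, and its mean difference of -0.31 had an interval from -0.87 to 0.25. SOD2, GPX1, TXN, NFE2L2, KEAP1, HMOX1, GCLC and GSR had no probe with these names on the array.

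The 9 selenoprotein transcripts had a median difference of 0.05, and SEPHS2, which makes the selenium donor, differed by 0.61 with an interval from -0.24 to 1.47. Metallothionein MT2A, which binds zinc and copper, ranged from -0.78 to 0.77 in the EP cows and from -1.03 to 0.13 in the control cows and differed by 0.16 (-0.52 to 0.84). All 8 transcripts of the metal and iron list, of 5 genes, were above 0, where 46.4% of all transcripts were. Their median was 0.10, with 0 at an unadjusted p under 0.05, and 4 of the 8 were above 0 in the stressed cows. The ferritin chains FTH1 and FTL, which store iron, differed by 0.08 (-0.08 to 0.24) and 0.03 (-0.32 to 0.38). Among 13 transcripts of vitamin E and lipoprotein handling the median was 0.05 and 0 were at an unadjusted p under 0.05. ABCG1, which exports cholesterol, differed by -0.27 (-0.54 to 0.01). APOE, a lipoprotein ligand made in many tissues, differed by 0.34 (-0.12 to 0.80).

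**Figure D1:**
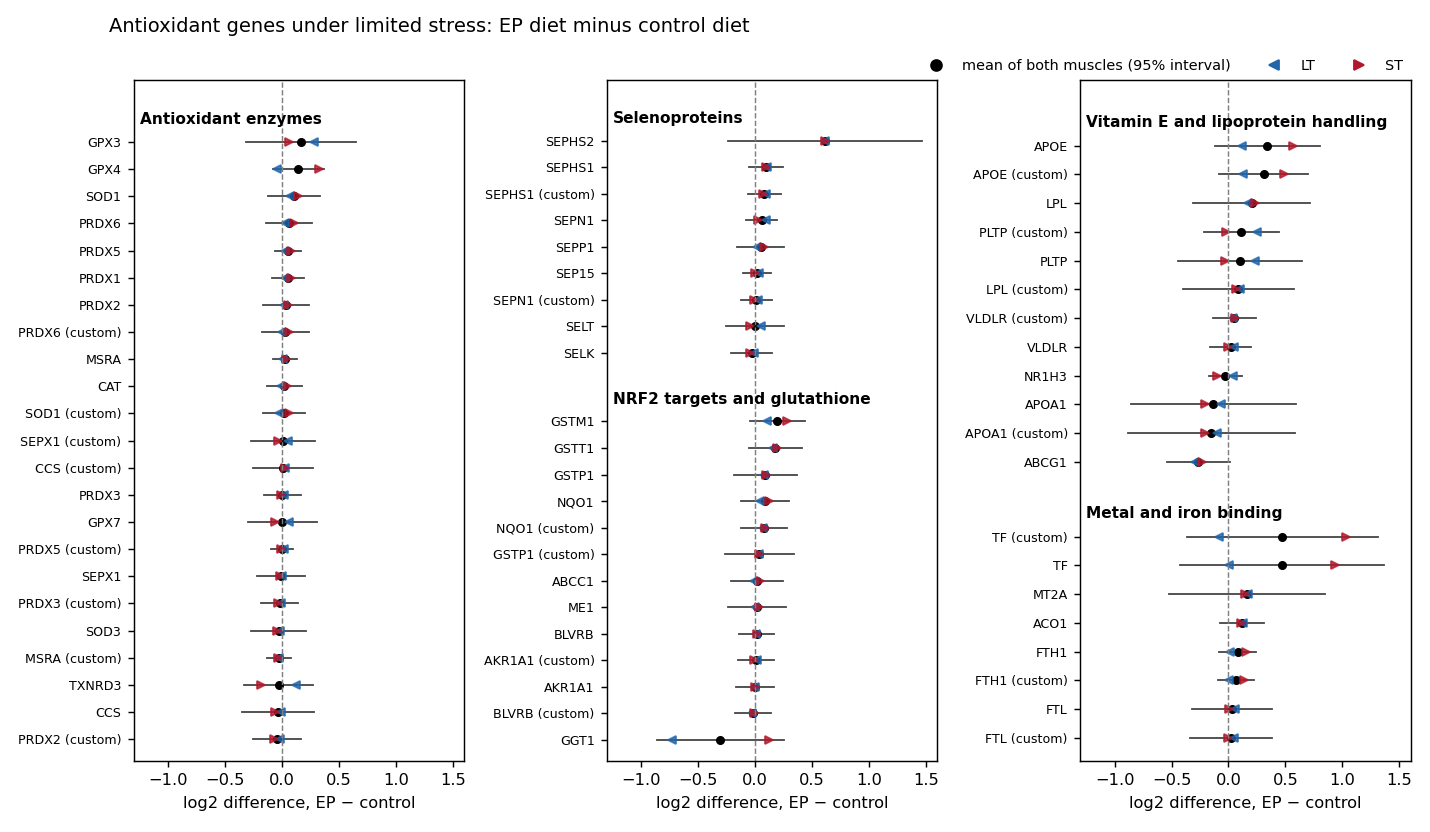
Difference between the EP and the control diet on the log2 scale (x axis) for tested transcripts of 5 gene lists (y axis) in the limited stress cows. Black points are means of both muscles with their 95% interval from limma, and triangles are the LT and the ST alone. All intervals of the mean that are drawn include 0.

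ALDH2, the mitochondrial aldehyde dehydrogenase that clears aldehydes made by lipid peroxidation, was among the transcripts ranked highest. Its EP cows ranged from -0.24 to 0.30 with a median of 0.19, and the control cows from -0.40 to 0.18 with a median of -0.13. Of the 8 EP cows, 7 lay above the control median, yet the ranges overlapped. The difference was 0.24 ± 0.10 (SE) on the mean of both muscles (unadjusted p = 0.022, adjusted p = 0.9999), and 0.20 in its custom set. It was 0.38 in the ST and 0.10 in the LT. The other transcripts of the aryl hydrocarbon and xenobiotic list did not pass an unadjusted p of 0.05. CYP1A1, the classical target of the aryl hydrocarbon receptor, differed by 0.17 (-0.42 to 0.75). The list as a whole had 2 of 8 transcripts higher at an unadjusted p under 0.05, both of ALDH2, where 0.662% of all transcripts were. The count was 0 without control cow308, 4 without EP cow286, and 1 without any 1 of 8 others (control cows cow255, cow282, cow302 and cow316 and EP cows cow277, cow280, cow304 and cow314).

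Genes of lipid metabolism were read because the diets held added oil. The 34 transcripts of fatty acid oxidation had a median difference of 0.02 and 0 at an unadjusted p under 0.05. The stearoyl-CoA desaturase SCD, which makes monounsaturated fatty acids, ranged from -0.69 to 0.93 in the EP cows and from -0.34 to 0.70 in the control cows, and its difference of 0.01 had an interval from -0.51 to 0.54. PDK4, the kinase that holds back pyruvate oxidation, differed by 0.24, with an interval from -0.63 to 1.1. Of 31 transcripts of fatty acid and cholesterol synthesis, 2 were lower at an unadjusted p under 0.05, where 1.49% of all transcripts were, and 0 were higher, where 0.662% were. Both were of SREBF2, the transcription factor of cholesterol synthesis. SREBF2 ranged from -0.40 to 0.15 in the EP cows and from -0.19 to 0.60 in the control cows, and 1 of 8 EP cows was above the control median. It differed by -0.26 ± 0.11 (SE) (unadjusted p = 0.030, adjusted p = 0.9999) and by -0.22 in its custom set. Without EP cow280, control cow308 or EP cow331, 0 transcripts of the list were lower at an unadjusted p under 0.05. The median of the list was 0.00 in the limited stress cows and 0.25 in the stressed cows, where 10 of the 31 were higher at an unadjusted p under 0.05, against 5.22% of all transcripts. In the diet by stress comparison 6 of the 31 had a lower difference under limited stress at an unadjusted p under 0.05, where 2.84% of all transcripts did.

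Markers of fat cells were measured because intramuscular fat differs between cows, and in a whole-muscle sample more fat cells and more RNA per fat cell cannot be told apart. All 12 tested transcripts of 7 fat cell genes were above 0, where 46.4% of all transcripts were, with a median difference of 0.39 and 0 at an unadjusted p under 0.05 on the mean of both muscles. In the ST the median was 0.73, with 3 of 12 higher at an unadjusted p under 0.05, where 1.63% of all transcripts were. In the LT it was 0.08, with 0 of 12 against 0.209% of all transcripts, and ran from -0.16 without EP cow280 to 0.24 without EP cow304. The diet by muscle comparison had 0 of 12 at an unadjusted p under 0.05, where 0.544% of all transcripts were higher and 0.567% lower, so a difference between the muscles was not shown. In the stressed cows the list had a median of 0.89, with 8 of 12 higher at an unadjusted p under 0.05, where 5.22% of all transcripts were. FABP4, the fatty acid binding protein of fat cells, differed by 0.13 in the LT against 1.21 in the ST, and PCK1, which supplies glycerol for triglycerides, by 0.10 against 0.86. The summed level of the list in the ST, as log2 of the signal over the 75th percentile of the array, ranged from 0.69 to 3.46 in the EP cows and from 0.76 to 2.67 in the control cows. These ranges overlapped. The count in the ST was 0 of 12 without EP cow275 or EP cow277, 7 without EP cow280, 8 without EP cow267 and 9 without control cow308. On the mean of both muscles it was 3 of 12 without EP cow267 or control cow308, and in the LT 2 of 12 without EP cow304. ADIPOQ, the fat cell hormone adiponectin, differed by 0.98 in the ST and 0.02 in the LT. PPARG, the regulator of fat cell differentiation, differed by 0.27 (-0.21 to 0.75). FASN, DGAT2 and TF, which fat cells also express, are outside this list and were not fixed in advance as markers. They differed by 0.75, 1.08 and 0.93 in the ST. In the LT they differed by 0.09, 0.03 and 0.01. The part of the fat cell list in these values was not tested. SCD, a lipid gene fixed in advance, differed by 0.19 in the ST. The list of fatty acid and cholesterol synthesis had an ST median of 0.05, with 16 of 31 transcripts above 0 and the highest at 1.08. At an unadjusted p under 0.05, 2 of the 31 were higher, where 1.63% of all transcripts were. Lower were 1 of the 31, where 1.65% of all transcripts were.

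**Figure D2:**
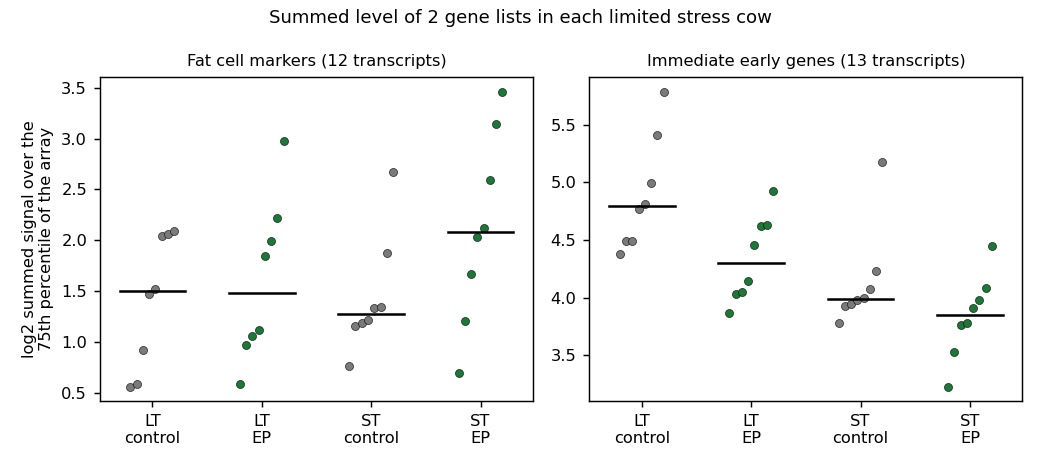
Summed signal of the fat cell markers (left) and of the immediate early genes (right) in each limited stress cow, as log2 of the signal over the 75th percentile of the array, by muscle and diet. Points are cows and bars are medians. The groups overlap in every panel, with 8 cows in each.

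Since no transcript was called, the named transcripts with the smallest unadjusted p were described as ranked and not as changed. For 4 of those ranked lower, the ones that the plots and the text below turn on, the 60-base probe is given in part, with 30 bases of each written 5′ to 3′, to show what was measured. Capitals mark bases that a probe of the custom set of the same gene also holds. The positions are those of the array annotation, on the bovine build Btau_3.1.
MFRP, chr15:28465854-28466002, minus strand: aggtggtggaggtcctcagaggttacaaga
MPPED2, chr15:60867644-60867703, minus strand: TTTTCTCAAAGGCCACGCCATTGTAAATTG
EGR1, chr7:49146005-49146064, plus strand: aaacaaagtgactgtttggcttataaacac
FOS, chr10:88963194-88963253, plus strand: CCTTGAGGTCTTTTGACATGTGGAAAGTGA
The MFRP probe spans 149 bases of the genome and so crosses at least 1 gap in the alignment, and the other 3 probes lie on 60 bases in 1 run.

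MFRP, a membrane protein with a frizzled-like domain known from the eye, had the smallest p on the lower side. Its EP cows ranged from -0.87 to 0.35 with a median of -0.22, and its control cows from -0.22 to 0.77 with a median of 0.43. All 8 EP cows were below the control median, although the ranges overlapped. The difference was -0.64 ± 0.15 (SE), with an interval from -0.95 to -0.33 (unadjusted p = 2.0e-04, adjusted p = 0.86 over transcript means). It was -0.56 in the LT and -0.72 in the ST, and lay between -0.73 and -0.55 when 1 cow was left out. The signal was low, well above background on 25 of the 32 arrays, and on 3 of 8 ST arrays of the EP cows against 8 of 8 of the control cows. In the stressed cows the difference was 0.06, and the diet by stress difference of -0.70 had an unadjusted p of 0.0028 and an adjusted p of 0.99.

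MPPED2, a metallophosphoesterase, ranged from -1.05 to 0.78 in the EP cows and from -0.13 to 1.39 in the control cows. Only 1 of 8 EP cows was above the control median of 0.72. The difference was -1.0 ± 0.32 (SE) (unadjusted p = 0.0040), with -0.83 in the LT and -1.17 in the ST, and its custom set gave -1.04. It was below 0 on all 4 slides of the LT and all 4 slides of the ST that held both diets. These slides held the same cows in each muscle, except EP cow331, which was on them in the LT only. They are thus not separate repeats, and several held only 1 EP cow. In the stressed cows the difference of MPPED2 was 0.01. ACAD11, an acyl-CoA dehydrogenase, differed by -0.47, but was well above background on only 17 of the 32 arrays. These were 4 EP against 6 control arrays in the LT and 2 against 5 in the ST. STMN4, a tubulin-binding stathmin, differed by -0.35, and BCAP29, a chaperone of the endoplasmic reticulum, by -0.19. The custom set that shares bases with EIF2AK3, the stress kinase of the endoplasmic reticulum, differed by -0.23. The mitochondrial ribosomal protein MRPL32 differed by -0.19 and the ribosomal protein RPL34 by -0.17, and neither was below 0 when scaled to the control features.

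On the higher side, ADORA1, the adenosine A1 receptor, differed by 0.58 ± 0.19 (SE) (unadjusted p = 0.0045), but was well above background on 17 of 32 arrays. These were 6 EP against 2 control arrays in the LT and 6 against 3 in the ST, so most control values lay near background. The custom set that shares bases with GDF2, a bone morphogenetic protein, ranged from -0.11 to 0.67 in the EP cows and from -0.68 to 0.33 in the control cows and differed by 0.49. This value came from 2 tested probes, at 0.30 and 0.69, and was -0.02 when the dim probes of the set were counted too. CTSD is the lysosomal protease cathepsin D. Its custom set of 5 probes ranged from 0.01 to 0.26 in the EP cows and from -0.32 to 0.14 in the control cows, and all 8 EP cows lay above the control median of -0.09. The difference was 0.18 ± 0.07 (SE) (unadjusted p = 0.019, adjusted p = 0.9999), and 0.17 for the other probe. In the custom set it was above 0 on all 4 slides of the LT and all 4 of the ST that held both diets. The slides of the LT and of the ST again held largely the same cows. Of 33 transcripts of calpains and cathepsins, proteases that bear on meat tenderness, 2 were higher at an unadjusted p under 0.05, both of CTSD, where 0.662% of all transcripts were, with a median of 0.05 in the list. Without control cow308 the count was 0, and without control cow255 or EP cow277 it was 1.

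Further named transcripts on the higher side were ENO2, the neuronal enolase, with 0.39, VPS28, a subunit of the sorting complex ESCRT-I, with 0.16, ING4, a chromatin reader, with 0.15, and AKR7A2, an aldehyde reductase that also acts on lipid-derived aldehydes, with 0.34. ENO2 was read from a custom set named by shared bases, with only 1 tested probe. It differed by 0.72 in the ST and 0.06 in the LT, and its mean was 0.25 without EP cow267. HSPB6, a small heat shock protein of muscle, ranged from -0.10 to 0.57 in the EP cows and from -0.31 to 0.07 in the control cows, and all 8 EP cows were above the control median. It differed by 0.22 ± 0.09 (SE) (unadjusted p = 0.026), and its custom set gave 0.21. The 43 heat shock transcripts had a median of 0.01, with 2 higher at an unadjusted p under 0.05, both of HSPB6, where 0.662% of all transcripts were, and 0 without EP cow304 or control cow316. PSMC1, an ATPase of the proteasome, differed by 0.18, in a list of 46 with a median of 0.03. NOL6, a nucleolar protein, differed by -0.06 here and by -0.46 in the stressed cows.

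**Figure D3:**
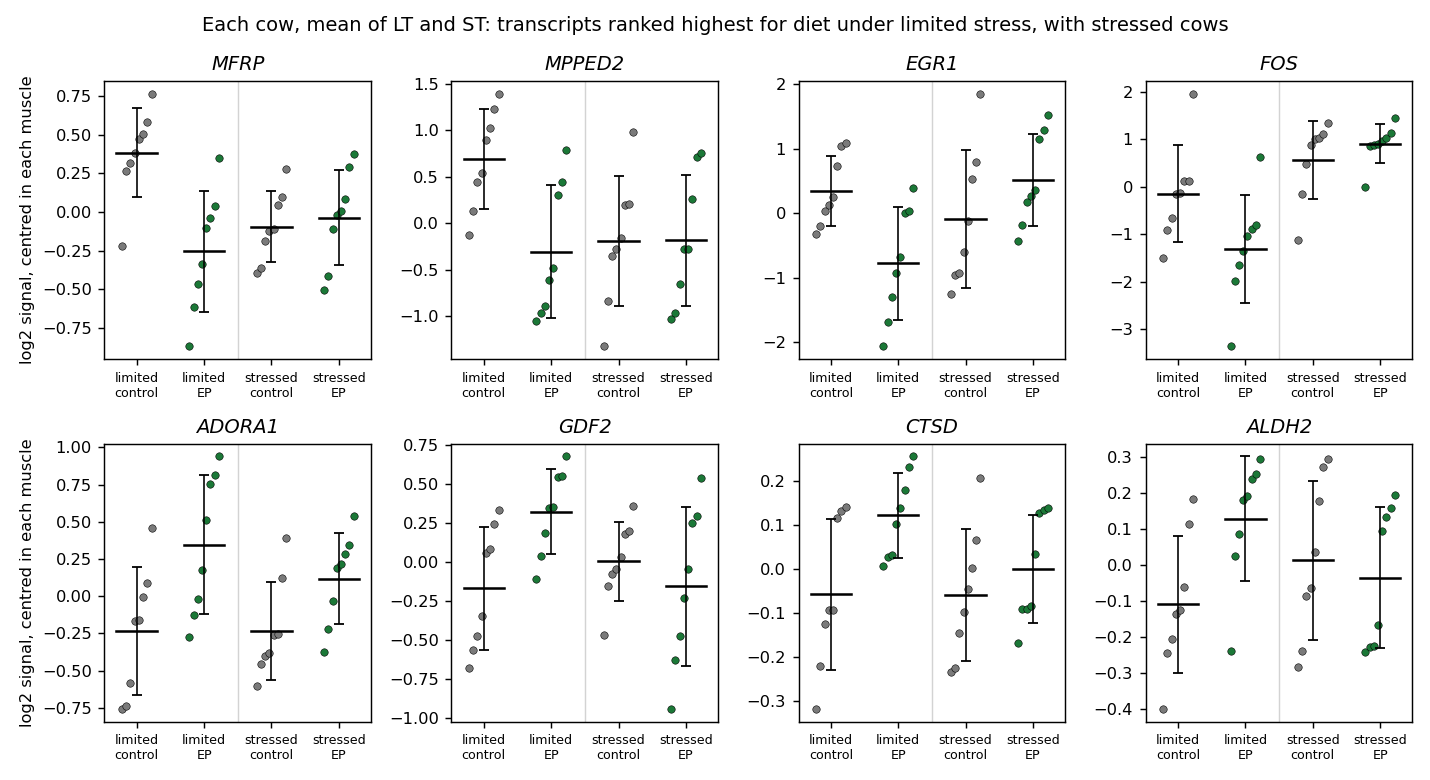
Log2 signal centred within each muscle and averaged over the LT and the ST (y axis) of each cow, by stress group and diet (x axis), for 8 transcripts named for their rank under limited stress. Points are cows, bars are means and error bars are SDs, with 8 cows per group. In the limited stress cows every pair of diets overlaps, and MFRP, MPPED2, EGR1 and FOS have lower means on the EP diet.

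The list that stood farthest from 0 on the lower side held immediate early genes, mostly of transcription factors. Such genes are switched on within minutes of a stimulus, and their mRNA is soon degraded. Of 13 tested transcripts of 8 genes, 12 were below 0 and 1 above, where 46.4% of all transcripts were above 0. At an unadjusted p under 0.05, 4 were lower, where 1.49% of all transcripts were, and 0 were called. The 4 were EGR1, JUNB, and FOS with its custom set, so they were not of separate genes. The median difference of the list was -0.30, beside -0.01 for all tested transcripts. EGR1, a zinc finger factor, ranged from -2.07 to 0.40 in the EP cows with a median of -0.80, and from -0.32 to 1.09 in the control cows with a median of 0.18. Of the 8 EP cows, 1 was above the control median. The difference was -1.13 ± 0.40 (SE), with an interval from -1.94 to -0.31 (unadjusted p = 0.0081, adjusted p = 0.9999).

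FOS, the partner of JUN in the factor AP-1, ranged from -3.37 to 0.63 in the EP cows with a median of -1.20, and from -1.51 to 1.96 in the control cows with a median of -0.15. The ranges overlapped widely, and the difference was -1.16 ± 0.43 (SE) (unadjusted p = 0.011). Its custom set of 5 probes gave -1.17. JUNB differed by -0.71 (-1.37 to -0.05) and -0.40 in its custom set. DUSP1, a phosphatase that ends MAP kinase signals, differed by -0.22 (-0.49 to 0.05), JUN by -0.18 (-0.45 to 0.09) and ATF3 by -0.30 (-1.18 to 0.58). HES1, a Notch target outside this list, differed by -0.63 on the mean of both muscles and -0.76 in the LT.

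The immediate early list lay below 0 in both muscles, with a median of -0.45 for the LT and -0.16 for the ST. In the LT 6 of 13 were lower at an unadjusted p under 0.05, where 0.881% of all transcripts were, and in the ST 0 of 13, where 1.65% were. The difference of EGR1 was -1.41 for the LT against -0.84 for the ST, and that of FOS was -1.31 against -1.01. The diet by muscle difference had an unadjusted p of 0.40 for EGR1 and 0.54 for FOS, which does not show that the muscles differed or were alike. The difference was below 0 on all 4 LT slides that held both diets for both genes, and on 3 of 4 ST slides. The slides of the LT and of the ST held largely the same cows, several with a single EP cow. Control cow316 had the highest FOS of all limited stress cows, and without this cow the difference of FOS was -0.86, the median of the list -0.17 and the count 3 of 13. In the LT the count was 3 of 13 without control cow316, control cow282, EP cow267 or EP cow304. In the ST it was 2 of 13 without control cow270, control cow320, EP cow286 or EP cow304, and 1 without EP cow314. With the slide as a block the LT had 6 of 13 and the ST 0 of 13.

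In the stressed cows EGR1, FOS and JUNB had differences above 0, of 0.60, 0.33 and 0.55. The diet by stress difference was -1.73 for EGR1 (unadjusted p = 0.0044), -1.50 for FOS (unadjusted p = 0.019) and -1.26 for JUNB (unadjusted p = 0.010), and the adjusted p of each was 0.99. Of 13 transcripts, 5 had a lower difference under limited stress at an unadjusted p under 0.05, where 2.84% of all transcripts did. The other genes of the list, JUN, DUSP1, CTGF, ATF3 and FOSL1, had diet by stress differences between -0.27 and 0.01.

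**Figure D4:**
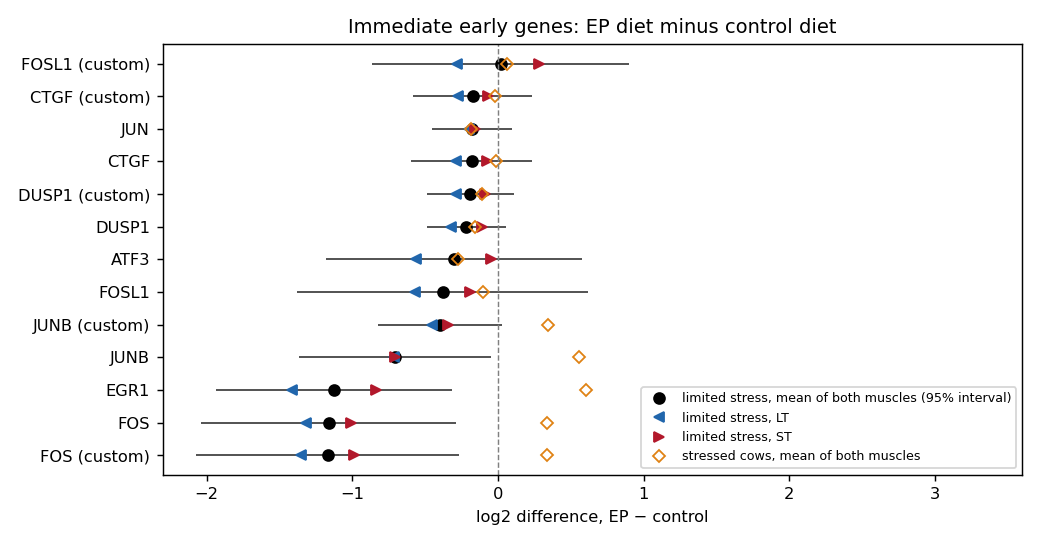
Difference between the EP and the control diet on the log2 scale (x axis) for the 13 tested transcripts of the immediate early list (y axis). Black points are means of both muscles in limited stress cows with their 95% interval, triangles the LT and the ST alone, and diamonds the stressed cows. EGR1, FOS and JUNB lie below 0 under limited stress and above 0 in the stressed cows.

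Glucocorticoid responsive genes, which cortisol switches on, had a median difference of 0.15 over 9 transcripts, 5 of them above 0, with 0 at an unadjusted p under 0.05. The median was -0.11 without control cow308 and 0.21 without control cow282. The summed level of the list had the other direction, with a median of 3.71 in the EP cows and 3.91 in the control cows as log2 of the signal over the 75th percentile of the array, and 1 of 8 EP cows above the control median. In the LT 1 of the 9 was lower at an unadjusted p under 0.05, DUSP1 at -0.32, where 0.881% of all transcripts were. CEBPD differed by 0.26 (-0.35 to 0.87), GADD45A by 0.33 (-0.07 to 0.73) and CDKN1A by -0.21 (-1.12 to 0.70). The 13 inflammation transcripts had a median of -0.07, and MYD88, the adaptor of Toll-like receptors, differed by 0.43 (-0.10 to 0.96). Structural and metabolic lists lay near 0, with medians of 0.01 over 132 transcripts of the respiratory chain, -0.03 over 83 of the cytosolic ribosome and -0.02 over 47 of glycolysis and glycogen.

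Markers of muscle fibres and of other cell types were read next. The 19 transcripts of skeletal muscle had a median difference of 0.01 and the 15 of fast fibres 0.00. The 12 slow fibre transcripts had a median of -0.25 in the ST and 0.02 in the LT, with 0 at an unadjusted p under 0.05 in either. In the diet by muscle comparison, LT minus ST, all 12 were above 0, where 2278 of 4230 transcripts were. Their median was 0.28, and 1 was higher at an unadjusted p under 0.05, where 0.544% of all transcripts were. The 32 connective tissue transcripts had a median of -0.04, against 0.47 in the stressed cows, with 10 lower in the diet by stress comparison at an unadjusted p under 0.05, where 2.84% of all transcripts were. The median of -0.04 became -0.15 without EP cow286 and 0.06 without EP cow304. The 5 endothelial transcripts had a median of -0.05. Immune cells had 1 tested transcript, PTPRC, at -0.19, and nerve had 2. The 3 blood transcripts, of HBE1, CA2 and ERAF, had a median of 0.05, and the adult haemoglobin chain HBB did not pass the filter on dim probes.

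**Figure D5:**
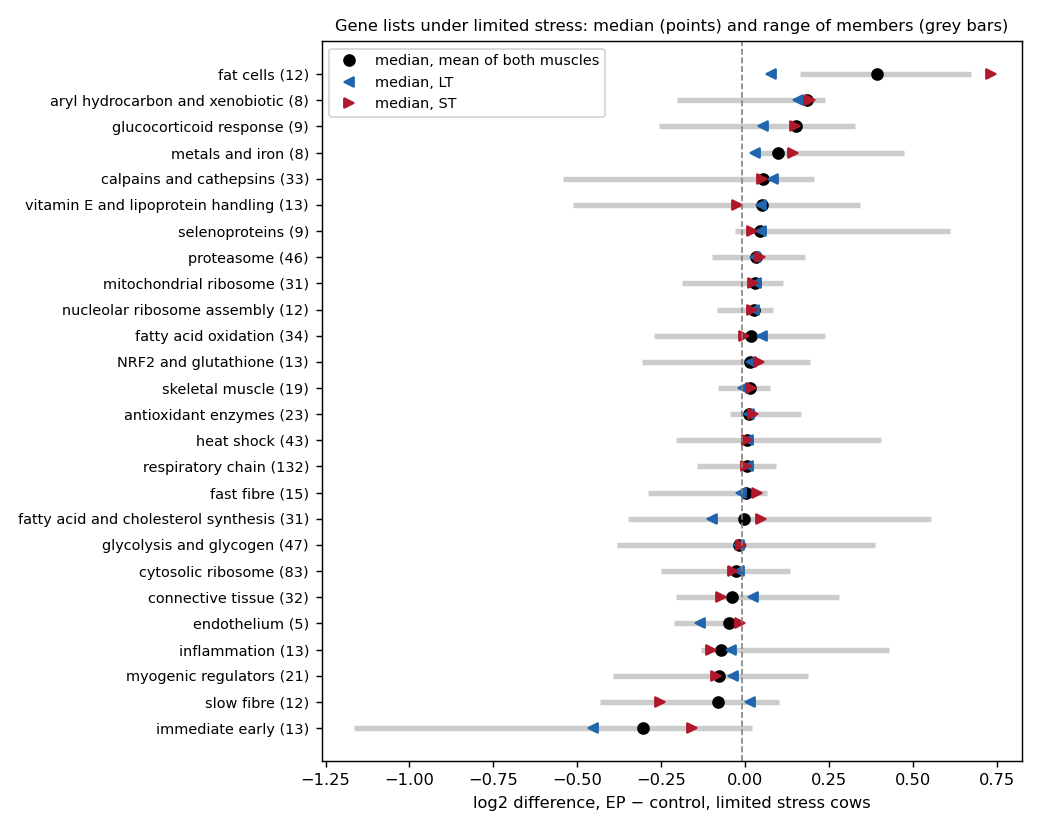
Median log2 difference between the EP and the control diet (x axis) of each gene list with at least 5 tested transcripts (y axis, number of transcripts in brackets), for the mean of both muscles, the LT and the ST, with grey bars for the range of members. The dashed line is the median of all tested transcripts. The fat cell list lies highest, at 0.39, and the immediate early list lowest, at -0.30.

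Each muscle was then examined alone. In the LT, no transcript of 4311 was called (0%) and 111 probes were at an unadjusted p under 0.05 (1.06%). In the ST, no transcript of 4246 was called (0%) and 3.21% of the probes were at an unadjusted p under 0.05, 155 higher and 176 lower. No transcript was called for the diet by muscle difference (0%), where 118 probes were at an unadjusted p under 0.05 (1.15%). ANXA9, an annexin, differed by 0.65 and TLR5, the receptor of flagellin, by 0.55 in the LT, and the unadjusted p was 0.024 and 0.018. Their ST differences were -0.14 and -0.01. The TLR5 signal in the LT was well above background on 7 of 8 EP and 5 of 8 control arrays. In the ST, the custom set of FGFR2, a fibroblast growth factor receptor, differed by 1.73, but its signal was well above background on 6 of 8 EP and 4 of 8 control arrays. PDK1, a kinase of pyruvate dehydrogenase, differed by -0.33 in the ST and -0.02 in the LT.

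The diet by stress comparison also called no transcript (0%), with 411 probes at an unadjusted p under 0.05 (4.01%). In the stressed cows the diets gave 0 called transcripts and 863 probes at an unadjusted p under 0.05 (8.42%), where the limited stress cows gave 208.

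The limited stress arrays had 75th percentiles from 2628 to 3988 units and between 72.9% and 80.9% of their spots well above background. The 75th percentile of the EP arrays differed from that of the control arrays by a log2 difference of -0.05 for the LT and -0.11 for the ST. The number of cows, 8 per diet, limits the precision of every value. In the LT all 4 slides held both diets, and in the ST 4 of 5. Scaling to the median of the control features moved the median difference of all probes to 0.18 on the mean of both muscles, and the 164 probes at an unadjusted p under 0.05 were then split into 151 higher and 13 lower. Under that scaling the median of the immediate early list was -0.12, with 4 of 13 transcripts above 0, and that of the fat cell list 0.58. A scaling factor moves all probes of an array alike, so the distance of a list from the median of all probes is fixed by construction. Without scaling, 8 probes were higher and 459 lower. Under either scaling no transcript was called.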

How the data were processed

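Total RNA of the LT and ST of 32 cows was hybridised to single-colour Agilent arrays. The deposited intensity values are the processed signals of Feature Extraction 10.1.1.1, background-subtracted by the authors' scanner software and not scaled between arrays. The series' value table holds the same signals and served for the unscaled alternative. The study scaled by the median of the control features. Here each array was divided by its 75th percentile over the spots that are not controls, since that median lay at 1.73 to 5.05 units, and log2 was taken. Flagged outlier spots were left out, spots of a probe averaged, and a probe was kept where 11 or more of a muscle's 32 arrays had it well above background. Differences are means of log2 values, so the number of cows and the background limit dim probes. The values of each muscle were centred and averaged per cow, and limma (3.58.1, R 4.3.3) was fitted over the 4 groups of stress and diet, with Benjamini-Hochberg adjustment. The diet by muscle test used the difference between the muscles of each cow. The scripts were tested on simulated data.

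Cow numbers pair the muscles of 1 animal. The deviations of the 2 muscles correlated between 0.10 and 0.76, over 0.1 in all 32 cows. Custom probe sets carry no gene name in the files and were named here from bases shared with named probes of the array. Named transcripts were, by a fixed rule, the called ones or, where none was, the 8 higher and 8 lower with the smallest unadjusted p, 3 each way per muscle, fixed antioxidant and lipid genes, NOL6, and up to 3 members of each gene list at an unadjusted p under 0.05. Some genes of the lists are counted but not reported here by name. The members and lists were chosen with earlier results of these data known. Alternatives were other scalings and filters, the limited stress cows alone, blocks for cow, slide and scan day, and each limited stress cow left out.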

Additional observations from a re-analysis of the deposited data

Results flagged for a closer look

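Among 96 groups of 8 cows examined, for the named transcripts, 5 held a cow set apart from the other 7 by more than Dixon's 95% limit, and chance gives about 5% of groups. FOS was highest in control cow316 at 1.96, with the next control cow at 0.12, and its custom set was at 1.98 in the same cow, with the next at 0.09. Without this cow the difference of FOS was -0.86 in place of -1.16, and that of the custom set -0.86 in place of -1.17. ACAD11 was highest in EP cow304 at 0.38, with the next EP cow at -0.26, and differed by -0.57 without it in place of -0.47. PDK1 was highest in control cow282 at 0.64, with the next at 0.15, and differed by -0.10 without it in place of -0.17. STMN4 was lowest in the same control cow at -0.044, with the next at 0.22, and differed by -0.39 without it in place of -0.35. The cause of these values was not tested.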

How the results depend on the processing

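No transcript was called under any scaling, filter, model or left-out cow that was run for the mean of both muscles, the LT or the ST. At an unadjusted p under 0.05, 467 probes passed without scaling, 395 without the filter and 344 with the limited stress cows alone, against 208. Leaving out 1 cow gave 161 to 273. In the LT the counts were 274 with the median of the control features, 518 without the filter and 172 with the limited stress cows alone, against 111, and 90 to 186 with 1 cow left out. In the ST the median of the control features gave 89, against 155 higher and 176 lower, and leaving out 1 cow 228 to 409. The split into higher and lower turned with the scaling, in the LT to 266 and 8 by control feature scaling and in the ST to 32 and 441 without scaling. When the arrays of both muscles were fitted with a replicate block for the cow, 0 transcripts were called and 235 probes passed, 185 with the slide added and 224 with the scan day. Without the replicate block, the diet by muscle comparison had 23 probes, against 118, and the diet by stress comparison had 493 with it and 73 by control feature scaling, against 411.

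Without scaling the sign turned for CAT (-0.059), PRDX6 (-0.015, custom set -0.050), SCD (-0.063, custom set -0.068), and the custom sets of SOD1 (-0.062) and NQO1 (-0.0028). By control feature scaling it turned for NOL6 (0.12, custom set 0.14), RPL34 (0.015), PDK1 (0.012) and MRPL32 (9.9e-05). A scaling moves all probes of an array alike, so these turns restate the shift of the median of all probes, to -0.084 and 0.18. With the replicate block and the slide SCD was at -0.047 and its custom set at -0.048, and without the filter GDF2 was at -0.016. With 1 cow left out, ANXA9 ran from -0.048 to 0.42, CAT from -0.027 to 0.047, PDK4 from -0.020 to 0.44 (custom set -0.11 to 0.33), SCD from -0.094 to 0.14 (custom set -0.093 to 0.12), and the custom sets of PRDX6 from -0.012 to 0.093 and of SOD1 from -0.019 to 0.054. The causes of the other turns were not tested.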

Other observations

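Outside the rule for named transcripts, and chosen after their values were seen, 2 others differed by more than 1 on the log2 scale. BOLA, a cattle histocompatibility transcript, differed by -1.11 (-2.59 to 0.36), with 1 EP cow at -7.20, the next lowest at -1.03 and 7 control cows measured. An array transcript with no gene name, TC305753, differed by -1.12 (-2.06 to -0.17), with its highest control cow at 2.93.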
